A study of Homo sapiens with 12 samples.

Results

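The comparison described here set 2 groups of HEK293 cells, a long-established line from human embryonic kidney, against each other: cells carrying the construct that the labels call A197-270, and cells carrying the control, labelled Flag vector, with no IFN-gamma in either group. The members are the 3 A197-270 libraries (replicates 4, 5 and 6) and the 3 vector libraries (replicates 1, 2 and 3), chosen by their titles and treatment labels, and they make up 6 of the 12 libraries of the series. Both groups were transduced on day 1 and harvested on day 4, and poly(A)-selected RNA was sequenced. The other 6 libraries received IFN-gamma on day 2, in 3 vector and 3 A197-270 replicates, and here they help to estimate each gene's spread and give values to set beside the main ones. The protocol calls the A197-270 plasmids tandem plasmids. What A197-270 encodes, the promoter that drives it and whether transduced cells were selected were not stated in the labels. Nor do the labels say that replicates came from separate cultures, so p-values measure the spread between these libraries, which may be technical.

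Interferon-stimulated genes and heat shock genes make up 2 lists that were set aside, so that the description covers genes outside them. The lists are not complete, and some genes outside them were also higher with IFN-gamma in vector cells. HEK293 cells grow fast in culture, and most of their polyadenylated RNA serves growth. They make ribosomes and translation factors, break down glucose, build sterols and fatty acids, and replicate DNA. Many transcripts of the translation machinery begin with a C followed by a run of pyrimidines (the 5′ terminal oligopyrimidine tract, or TOP), which lets the kinase mTOR set how they are used. Glycolytic enzymes are targets of HIF-1, which binds an RCGTG core, and of MYC. Genes of cholesterol synthesis are driven by SREBP2, which cells activate when sterols run low. Replication-dependent histone transcripts end in a stem-loop in place of a poly(A) tail, whereas the linker histone gene H1F0 makes a polyadenylated transcript.

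Libraries held 32547177, 39759141 and 68558742 reads in vector cells and 43604452, 70746868 and 39180809 in A197-270 cells. Of 14 markers of the HEK293 line, 13 reached 10 normalized counts, and the list summed to 66405 to 68052 in vector and 79454 to 81869.8 in A197-270 libraries. Most of the sum was VIM (means 33869 and 42271) and NEFM (14474 and 17180). Of the 13 tested members 5 were higher, 1 lower and 7 not called. PAX2 averaged 135 in vector and 101 in A197-270 libraries, and HOXD10 1660 and 1604. In bulk RNA, a change in the number of cells of a kind and a change in RNA per cell cannot be told apart. Of 14049 tested genes, 1756 (12.5%) were higher and 1766 (12.6%) lower with A197-270 by limma at an adjusted p under 0.05. Of the 252 tested genes of the interferon and antigen presentation list, 162 (64.3%) were lower and 6 (2.38%) higher. The heat shock list had 25 of 70 genes (35.7%) higher and 10 (14.3%) lower.

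Outside those lists, 13727 genes were tested, and 1725 (12.6%) were higher and 1594 (11.6%) lower. Most of these differences were small. Only 23 off-list genes (0.168%) rose and 54 (0.393%) fell at least 2-fold, and the median of all off-list log2 fold changes was 0.002. The 3 values of one group lay wholly above or below those of the other for 5364 off-list genes (39.1%). Genes named below were mainly chosen among these, so for them separation of the groups was fixed by the choice. Scaling matters for the small changes. With libraries set to equal totals, the off-list counts became 1135 higher and 2553 lower, and the median over all tested genes moved to -0.05. Over all 14049 tested genes 1161 were then higher and 2741 lower, which is the background for list counts with equal totals. Counts in parentheses after a list's own counts are those with equal totals, in the same order.

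**Figure D1:**
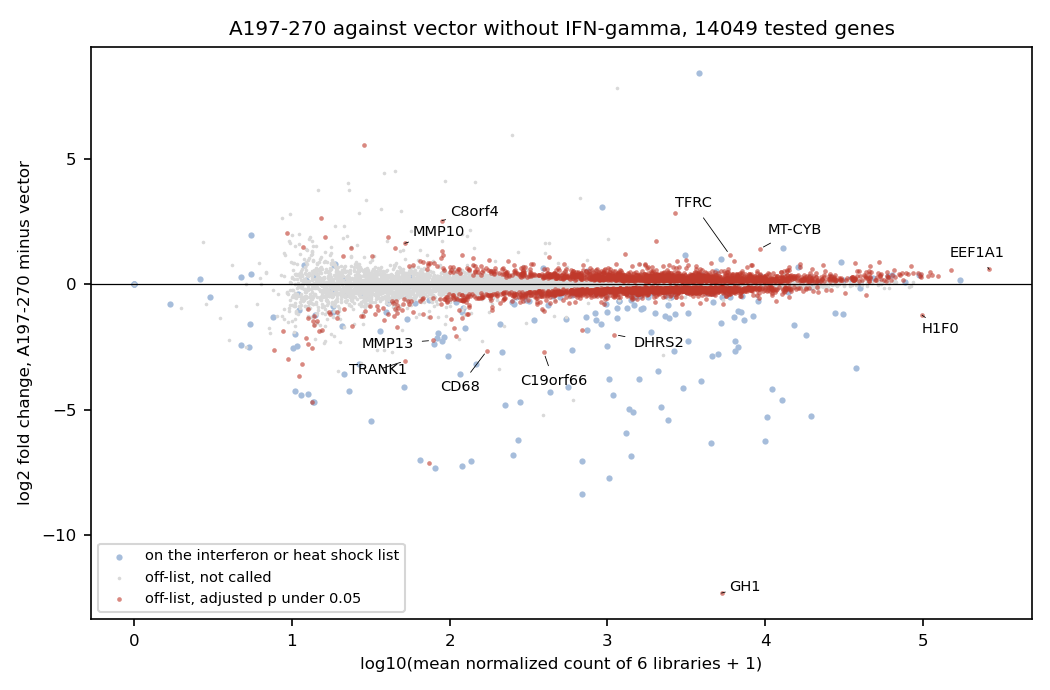
Each point is a tested gene, with log10(mean normalized count over the 6 libraries + 1) on the x axis and its log2 fold change (A197-270 minus vector) on the y axis; blue points are genes of the 2 lists set aside, grey points off-list genes that did not pass and red points off-list genes with a limma adjusted p under 0.05. Most red points lie near 0, while GH1 (-12.31), TRANK1 (-3.06), C19orf66 (-2.71) and C8orf4 (2.53) stand apart.

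Many genes of the translation machinery were higher in A197-270 cells. Of 79 cytosolic ribosomal protein genes 44 rose and 0 fell, against 12.5% and 12.6% of all tested genes, with a median log2 fold change of 0.18. The list took 7.25% to 7.60% of all normalized counts in vector libraries and 8.15% to 8.60% in A197-270 libraries. With equal totals 39 rose and 2 fell. Under quantile normalization 23 rose and 10 fell, which is a weaker lean. Of 42 translation initiation and elongation factor genes 22 rose and 1 fell, and 18 and 4 did so with equal totals. Their share of the counts was 2.43% to 2.56% in vector and 3.05% to 3.18% in A197-270 libraries.

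The elongation factor gene EEF1A1, whose protein brings aminoacyl-tRNA to the ribosome, had the highest normalized count of all genes in each of these 6 libraries, a count that is not per length. It had 199534, 204935 and 223112 normalized counts in vector cells and 316034, 306198 and 323917 in A197-270 cells. The log2 fold change was 0.59 ± 0.0704 (standard error, SE; limma adjusted p = 3.77e-05), and 0 under quantile normalization by construction, since it ranked first in all 6. EEF2, the translocase of elongation, went from 120003 ± 10555 to 179771 ± 7885 normalized counts (SD, n = 3 each), a log2 change of 0.59 (limma adjusted p = 1.38e-05). EIF4B, a cofactor of the helicase that unwinds the mRNA's 5′ end, showed the largest rise of the factor list. Its values were 33456, 34399 and 37172 in vector and 55910.3, 58574 and 57109 in A197-270 libraries (log2 0.71 ± 0.0572). EIF3L, a subunit of the initiation factor that holds the small ribosomal subunit, rose by 0.62 on the log2 scale. The one factor gene that fell was EIF4A2 (-0.22), a helicase paralogue. Among ribosomal proteins the largest rises were RPL6 (0.52), RPLP0 (0.47), the stalk protein, and RPS2 (0.47), and RPL4 and RPS4X rose by 0.31 and 0.35, calls lost under quantile normalization.

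Start-site windows are shown because the TOP tract is what these genes are known to share. Each is 15 bases on either side of the RefSeq start (GRCh38.p14), with a C and the pyrimidines after it in capitals.
EEF1A1 (chr6:73521018-73521047, minus strand): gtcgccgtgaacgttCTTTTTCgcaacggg
EEF2 (chr19:3985449-3985478, minus strand): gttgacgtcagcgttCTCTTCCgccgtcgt
EIF4B (chr12:53006441-53006470, plus strand): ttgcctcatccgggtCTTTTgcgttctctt
RPLP0 (chr12:120201097-120201126, minus strand): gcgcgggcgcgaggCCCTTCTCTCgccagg
A C followed by at least 4 pyrimidines, searched on the gene's strand from base -5 to base 10 of the start, stood in 51 of 63 cytosolic ribosomal promoters (81.0%) and in 22.6% of the 11249 promoters matched to tested genes. It was present in 28.8% of promoters of off-list genes that rose and in 18.4% of those of genes that fell. The genes that rose include those of the ribosomal and factor lists, so the first share is not independent of these lists. Within the ribosomal and factor lists together, 33 of 65 genes with such a start were called higher (median log2 fold change 0.17), and 16 of 31 without one (median 0.15). The medians with and without the letters searched were thus close, and their difference was not tested. This search was chosen after the values were seen.

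Other genes that serve protein synthesis leaned the same way to a lesser extent. Of 45 ribosome biogenesis genes 11 rose and 4 fell, but 5 and 4 with equal totals. NPM1, a nucleolar chaperone, rose from 86515 ± 2725 to 106776 ± 3587 normalized counts, except under quantile normalization, and the nucleolar GTPase gene GNL3L by 0.46 on the log2 scale. Of 19 cytosolic aminoacyl-tRNA synthetase genes 7 rose and 0 fell (7 and 1 with equal totals), led by QARS (0.39) and EPRS (0.39). HNRNPA1, an RNA-binding splicing regulator, went from 51924, 53079.8 and 52049.8 to 79849.8, 79216 and 75217 (log2 0.58, limma adjusted p = 7.2e-07). Its list of SR and hnRNP genes had 8 of 43 up and 5 down (7 and 10). MYC, a transcription factor that drives growth genes, had 2846, 2340.1 and 2059 normalized counts in vector and 4266, 3989 and 4014 in A197-270 libraries (log2 0.77 ± 0.0905).

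Genes of glucose use were higher almost throughout. Of 22 glycolysis genes 18 rose and 0 fell, with a median of 0.28 and a lowest member at 0.13. The counts were 16 and 0 with equal totals and 13 and 0 under quantile normalization. The list took 1.22% to 1.29% of the counts in vector and 1.51% to 1.61% in A197-270 libraries. HK2, the hexokinase that traps glucose in the cell, had 12928, 12385 and 10997 normalized counts in vector and 21366, 21179 and 20958 in A197-270 libraries, the largest change of the list (0.81 ± 0.109; limma adjusted p = 0.000112). PGK1 rose by 0.51, the glucose transporter gene SLC2A1 by 0.47 and LDHA, which turns pyruvate into lactate, by 0.47 on the log2 scale. LDHA values were 72968, 79284 and 83237 in vector and 107847, 108044 and 108709 in A197-270 libraries.

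Hypoxia target genes outside glycolysis moved in the same direction, with 13 of 22 up and 0 down (10 and 0 with equal totals; median 0.29). LOX, which cross-links collagen, rose from 1284 ± 156 to 2182 ± 88.9 and NDRG1 from 12610.4 ± 207 to 20589 ± 717 normalized counts (SD, n = 3 each). PDK1, the kinase that holds back pyruvate dehydrogenase, rose by 0.49. The prolyl hydroxylase genes EGLN1 (0.44) and EGLN3 (0.31), which mark HIF for degradation, were also higher, and so was VEGFA (0.29). CA9, often the most responsive HIF target, was low in all 6 libraries, at 13.2, 7.99 and 19.4 in vector and 16.9, 17.5 and 21 in A197-270 cells (adjusted p = 0.512), so its response could not be judged at this depth.

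Promoters are shown for 3 genes that rose, with every ACGTG and its reverse complement CACGT in capitals. ACGTG is a form of the RCGTG core that HIF-1 binds (R is A or G), and the form GCGTG was not searched. A CACGTG holds a match on both strands, and that longer motif is also bound by MYC. Each window runs from 250 bases before to 50 after the RefSeq start.
LDHA (chr11:18394313-18394612, plus strand): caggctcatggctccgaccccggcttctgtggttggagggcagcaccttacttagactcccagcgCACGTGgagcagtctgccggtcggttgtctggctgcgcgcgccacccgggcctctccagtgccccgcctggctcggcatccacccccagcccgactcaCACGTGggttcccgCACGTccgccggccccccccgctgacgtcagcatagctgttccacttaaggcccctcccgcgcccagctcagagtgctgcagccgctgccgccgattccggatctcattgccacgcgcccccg
LOX (chr5:122078210-122078509, minus strand): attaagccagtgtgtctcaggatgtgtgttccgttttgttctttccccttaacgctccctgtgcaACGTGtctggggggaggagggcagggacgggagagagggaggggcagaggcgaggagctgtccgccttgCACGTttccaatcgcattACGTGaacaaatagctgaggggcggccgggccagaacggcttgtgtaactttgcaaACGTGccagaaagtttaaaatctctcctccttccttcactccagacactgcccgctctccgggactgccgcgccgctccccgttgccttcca
TFRC (chr3:196082041-196082340, minus strand): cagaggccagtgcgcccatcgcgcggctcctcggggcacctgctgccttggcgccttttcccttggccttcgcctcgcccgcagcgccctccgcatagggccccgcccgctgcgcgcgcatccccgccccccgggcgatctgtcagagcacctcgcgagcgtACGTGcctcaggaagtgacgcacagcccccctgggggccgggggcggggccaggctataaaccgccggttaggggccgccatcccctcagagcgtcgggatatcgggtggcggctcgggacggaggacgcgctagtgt
ACGTG stood in 12 of 18 hypoxia target promoters (66.7%), in 8 of 21 glycolysis promoters (38.1%), in 32.3% of promoters of off-list genes that rose and in 27.1% of those that fell, against 26.1% of all matched promoters. The hypoxia list holds known hypoxia targets, so a high share there does not rest on these libraries. Both lists were searched whole, whether or not a gene rose. ACGTG was likewise searched after the values were seen, and a match is a stretch of letters, not a measured site. TGATGNAA, a core bound by ATF4 with C/EBP partners, was searched on both strands too and stood in 1.73% of promoters of off-list genes that rose and in 1.65% of all.

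Amino acid and one-carbon metabolism followed in part. Of 18 genes of serine, one-carbon and amino acid synthesis 9 rose and 1 fell, and the same counts were found with equal totals. BCAT1, which acts on branched-chain amino acids, rose from 5240.0 ± 48.2 to 7039.5 ± 123 normalized counts, SHMT2 by 0.39 and the asparagine synthetase gene ASNS by 0.34. Of 24 ATF4 target genes 8 rose and 2 fell (7 and 2). DDIT4, an inhibitor of mTOR complex 1, had 11008, 11503 and 9863 normalized counts in vector and 18433, 16635 and 17410.2 in A197-270 libraries (log2 0.70), and the glutathione-degrading enzyme gene CHAC1 rose by 0.65. ATF4 itself stood at 25614, 27189 and 29571 and 26873, 26892 and 30196 (adjusted p = 0.776), and PPP1R15A, the phosphatase subunit that ends the eIF2 stress response, fell by 0.61. Of 20 genes that respond to misfolded protein in the endoplasmic reticulum 2 rose and 1 fell (1 and 3), a smaller share than over all tested genes. Among 16 NRF2 targets 8 rose and 1 fell (7 and 1), with the heme oxygenase gene HMOX1 at 0.48 and the cystine transporter gene SLC7A11 at 0.46.

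An iron uptake gene was among the 23 off-list genes that rose at least 2-fold. TFRC, the transferrin receptor (chromosome 3, 196027183 to 196082189 in hg38, minus strand), had 3779.6, 3479 and 3739 normalized counts in the vector libraries and 7675, 8195 and 8890.0 in the A197-270 libraries. All 3 A197-270 values lay well above all 3 vector values. The log2 fold change was 1.17 ± 0.0626 (limma adjusted p = 5.17e-09). ACO1, a cytosolic aconitase that becomes the RNA-binding iron regulatory protein 1 when it lacks its iron-sulfur cluster, went from 1973, 2004 and 1962 to 3220.1, 3220.3 and 3189 (log2 0.70 ± 0.0357). Here too the groups were far apart, and the ACO1 values within each group were close together. IREB2, the second iron regulatory protein, rose by 0.25, and the ferritin heavy chain gene FTH1 by 0.21. FBXL5, the ligase that degrades the IREB2 protein, fell by 0.27 and the mitochondrial iron carrier gene SLC25A28 by 0.38. Of 13 iron-handling genes 6 rose and 2 fell (5 and 2).

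**Figure D2:**
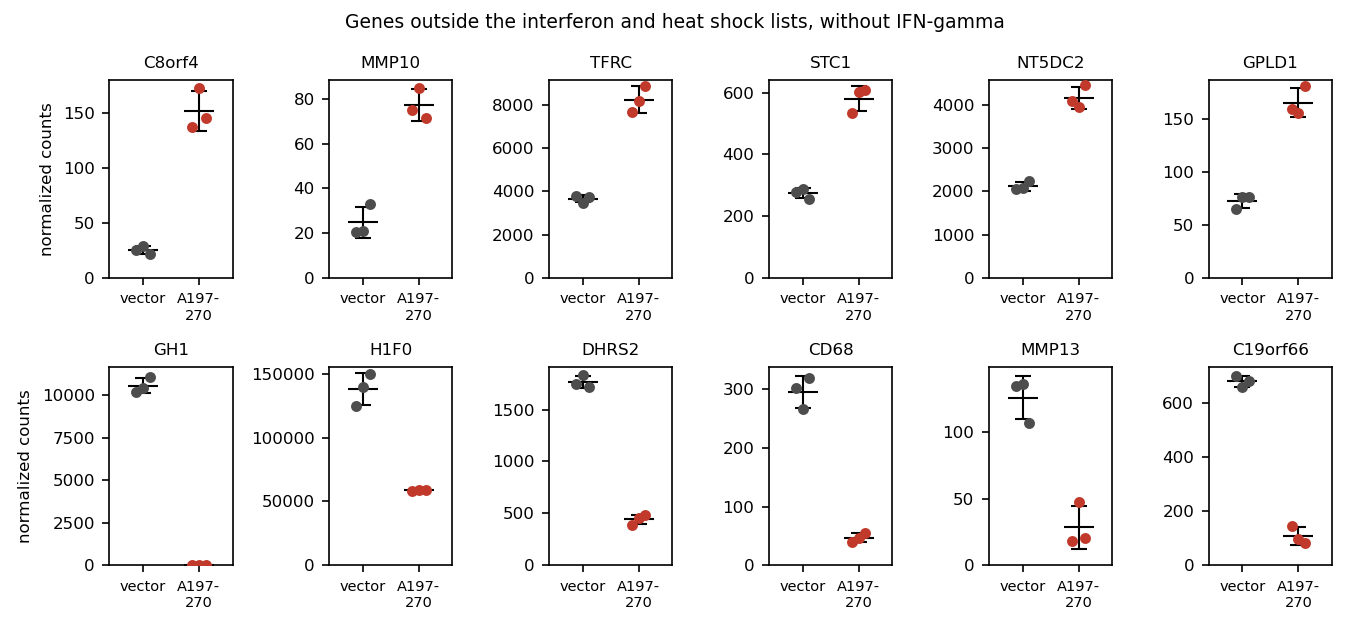
Normalized counts of 12 off-list genes in each vector (grey) and A197-270 (red) library, with the mean and SD (n = 3 per group) in black, each panel on a linear axis from 0. In every panel the groups do not overlap, which was a condition for naming these genes. The upper row shows genes that were higher with A197-270, such as TFRC, and the lower row genes that were lower, such as GH1 and H1F0.

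Transcripts of the mitochondrial genome were mostly higher. Of the 13 genes on the mitochondrial genome 10 rose and 0 fell, with a median of 0.76, and the counts were the same with equal totals. MT-CYB, the cytochrome b subunit of complex III, had 4429.7, 4732 and 5944 normalized counts in vector and 11680.3, 16550.3 and 11979 in A197-270 libraries (log2 1.41 ± 0.15). MT-ND4, a subunit of complex I, had 31342, 34054 and 43978 and 57219, 84621 and 62734. MT-ND1 (-0.18), MT-ND2 (0.19) and MT-ND6 (0.28) did not pass. The mitochondrial genome is transcribed as long precursors that are then processed into single transcripts. The share of all counts taken by the 13 genes was 0.355% to 0.480% in vector and 0.546% to 0.802% in A197-270 libraries, with A197-270 library 5 the highest. That library was also the deepest of the 6, and the part of depth in the result was not tested.

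Nuclear genes of complex I and of the mitochondrial ribosome did not follow, whereas TCA cycle genes rose more often than they fell. Of 38 nuclear complex I genes 3 rose and 3 fell (2 and 10), with a median of -0.01. For complexes II to V the counts were 8 and 2 of 43 in the deposited scaling but 5 and 7 with equal totals. Of 78 mitochondrial ribosome genes 4 rose and 22 fell (4 and 29 with equal totals). MRPL49 fell from 3202, 3209 and 3185 to 2246, 2186 and 2388, and MRPS18C by 0.40 on the log2 scale, while MRPL45 rose by 0.36. In the TCA cycle list 8 of 20 genes rose and 1 fell (7 and 4 with equal totals), with CS, the citrate synthase gene, at 0.34 and the pyruvate carboxylase gene PC at 0.44. Of 225 solute carrier genes 36 rose and 26 fell. The counts were 24 and 37 with equal totals, a scaling under which falls outnumbered rises over all tested genes too. SLC25A13, the mitochondrial aspartate-glutamate carrier, was one of the clearest risers of the list. Its values were 1167, 1162 and 1141 in vector and 2120.4, 2019 and 1902 in A197-270 libraries (log2 0.80, limma adjusted p = 5.58e-08).

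**Figure D3:**
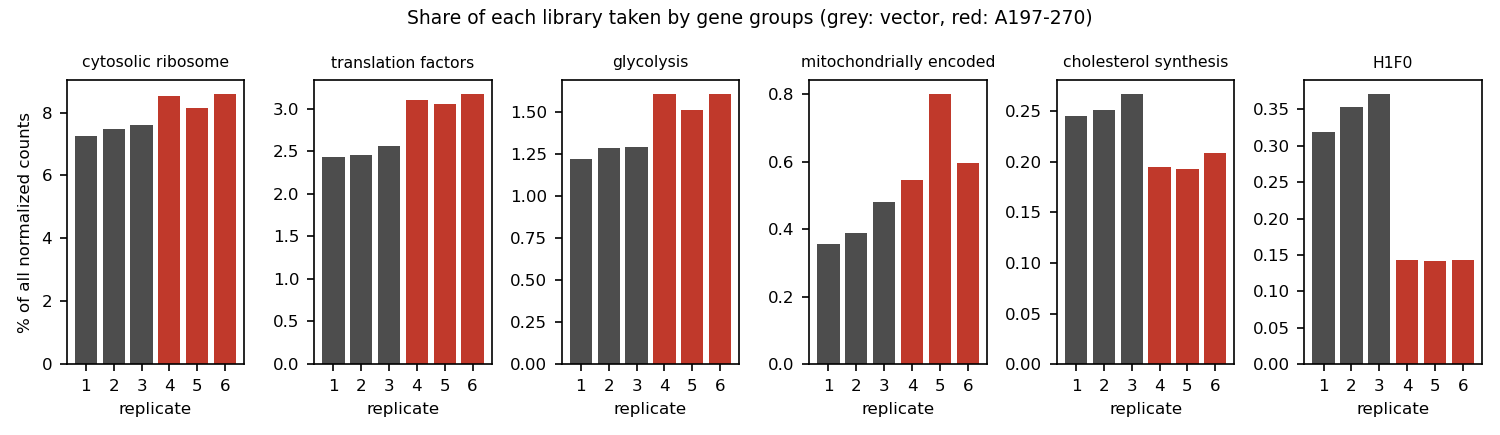
Percent of all normalized counts of a library taken by 5 gene lists and by H1F0, as 1 bar per library (replicates 1 to 3 vector in grey, 4 to 6 A197-270 in red), with axes from 0. The ribosomal share was 7.25% to 7.60% in vector and 8.15% to 8.60% in A197-270 libraries, and the H1F0 share 0.319% to 0.372% and 0.142% to 0.143%.

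H1F0 and 14 of 34 histone genes were lower. H1F0 encodes the linker histone H1.0, which compacts chromatin and accumulates in cells that leave the cycle or differentiate (chromosome 22, 37805093 to 37807436, plus strand). Its values were 124997, 140140.0 and 149877 normalized counts in vector and 58472, 58693 and 58858 in A197-270 libraries, so the A197-270 values were close to each other and far below each vector value. The log2 fold change was -1.23 ± 0.0724 (limma adjusted p = 1.51e-08). H3F3B, which encodes the replacement histone H3.3, fell by 0.37 and BRD2, a reader of acetylated histones, by 0.42.

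Of 71 histone cluster genes measured, 34 reached the level for testing, and 14 fell while 0 rose (15 and 0 with equal totals, 12 and 0 under quantile normalization). HIST1H2BJ went from 490.1, 577 and 536 to 278, 271 and 211 normalized counts (log2 -1.08). HIST2H4A went from 167, 142 and 127 to 46, 58.9 and 62, and HIST2H4B, a near-identical copy, fell by 1.30. How reads shared by such copies were assigned was not stated, so single histone genes are uncertain. The RNA was poly(A)-selected, and these values cover polyadenylated histone transcripts only. Their summed share of the counts was 0.0201% to 0.0217% in vector and 0.0144% to 0.0159% in A197-270 libraries.

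Cell cycle genes went both ways. Of 36 DNA replication genes 14 fell and 5 rose (17 and 4). FEN1, the flap endonuclease of Okazaki fragments, went from 6768 ± 247 to 5191 ± 184 normalized counts, PCNA, the sliding clamp, fell by 0.28, and SLBP, which binds the histone stem-loop, by 0.16 on the log2 scale. Of 28 mitosis genes 10 rose and 3 fell (8 and 5 with equal totals), among them HMMR (0.52), the kinetochore protein gene CENPF (0.45) and the kinase gene PLK1, at 3593, 3524 and 3532 in vector and 4779, 4764 and 4939 in A197-270 libraries. CCND1, the G1 cyclin, was lower by a small and even amount, from 2057 ± 17.7 to 1719.6 ± 8.94 (log2 -0.26).

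Sterol genes fell, and genes of fatty acid synthesis rose more often than they fell. Of 23 cholesterol synthesis and uptake genes 13 fell and 1 rose, with a median of -0.21, and 14 and 1 did so with equal totals. MSMO1, a C4 sterol oxidase, had 5829, 6669.7 and 7880.5 normalized counts in vector and 3567, 3692 and 4618 in A197-270 libraries. IDI1 fell by 0.76 and INSIG1 by 0.68 on the log2 scale. SREBF2, which encodes SREBP2, stood at 0.04 (adjusted p = 0.65), and the one gene that rose was PMVK (0.32). Of 12 fatty acid synthesis genes 5 rose and 1 fell (4 and 1), with ACACA at 0.33 and FASN at 0.33. CPT1A, which admits fatty acids to mitochondria for oxidation, rose from 4815 ± 106 to 6259 ± 208.

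**Figure D4:**
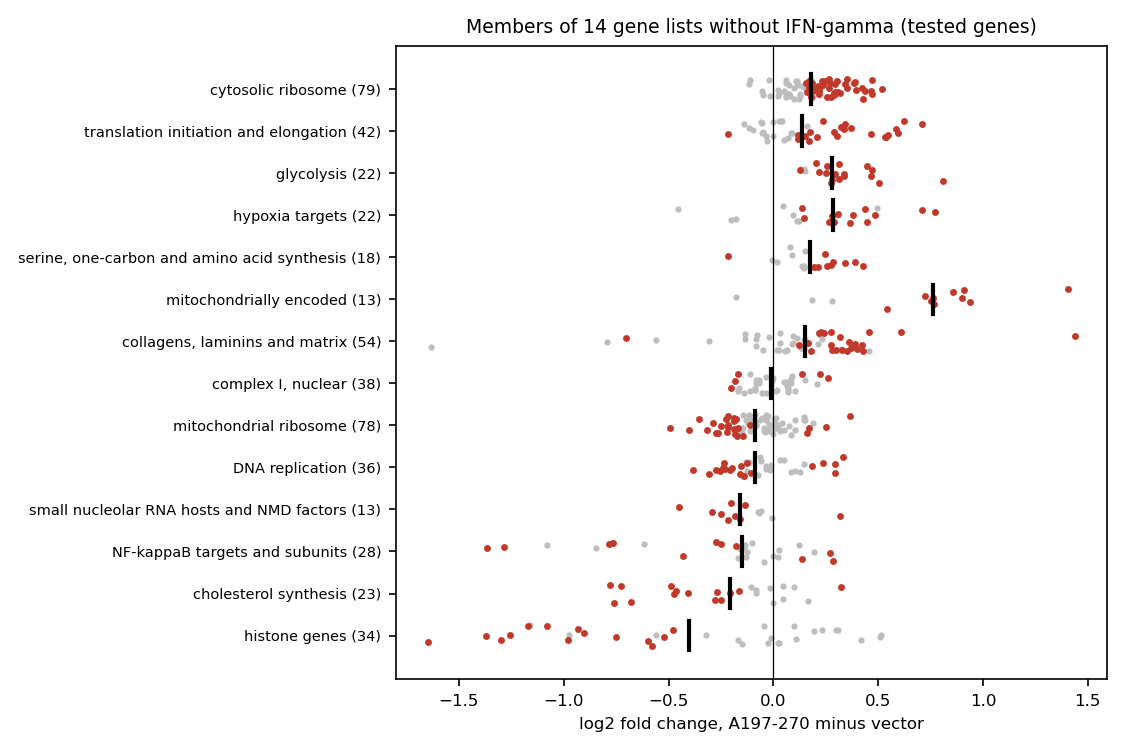
Log2 fold changes (A197-270 minus vector) of the tested members of 14 lists, 1 point per gene, red where the limma adjusted p was under 0.05 and grey otherwise, with a black bar at the list median and the number tested in parentheses. Glycolysis members all lie right of 0, mitochondrially encoded genes have the highest median (0.76) and histone genes the lowest (-0.40).

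Matrix and cytoskeleton genes were higher more often than lower. Of 54 collagen, laminin and other matrix genes 22 rose and 1 fell (19 and 2 with equal totals), among them the laminin gene LAMA5 (0.42), HSPG2 (0.40), which encodes perlecan, and the collagen gene COL4A1 (0.18). COL6A5 was the one that fell (-0.70), a call lost without vector replicate 1 or A197-270 replicate 6, and fibronectin (FN1) stood at 0.09 (adjusted p = 0.215). Of 25 actin cytoskeleton genes 9 rose and 3 fell (7 and 3). ACTG1, cytoplasmic gamma-actin, had 62038, 64436 and 60679 normalized counts in vector and 110788, 97943 and 103921 in A197-270 libraries (log2 0.74, limma adjusted p = 6.72e-08), and the cross-linkers FLNC and FLNA rose by 0.67 and 0.44.

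The largest rises outside the lists were in genes of low to middling level. C8orf4, also called TCIM, encodes a small regulator linked to Wnt signalling and inflammation (chromosome 8, 40153455 to 40155308, plus strand). It had 25.3, 29 and 21.7 normalized counts in vector and 137, 172 and 145 in A197-270 libraries, 5.80-fold higher on the log2(value + 1) scale (log2 2.53 ± 0.235, limma adjusted p = 3.31e-06). The matrix metalloproteinase gene MMP10 had 20.5, 21 and 32.9 and 75.1, 85.2 and 71.4, a log2 change of 1.63 ± 0.248. Its neighbour on chromosome 11, the collagenase gene MMP13, went the other way, from 135, 136 and 107 to 17.8, 47.3 and 20 (log2 -2.24 ± 0.293). A197-270 library 5 was the highest of its group for MMP13. That it lay below every vector library was fixed by the rule for naming genes.

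STC1, a secreted glycoprotein gene known to respond to hypoxia, went from 279, 289 and 257 to 533, 603 and 607 (log2 1.08). NT5DC2, named for a nucleotidase domain, had 2041, 2064 and 2234 and 4079, 3953 and 4449.8 (log2 0.98 ± 0.0546, limma adjusted p = 8.12e-09). GPLD1, which cleaves GPI anchors, rose by 1.18, the cAMP-activated exchange factor gene RAPGEF3 by 1.05, the glutamate receptor auxiliary subunit gene CACNG8 by 1.16 and FMO4, a flavin monooxygenase, by 1.04. At the low end, the adhesion receptor gene CD44 had 8.43, 0 and 5.88 normalized counts in vector and 24.4, 22.8 and 24.2 in A197-270 libraries (adjusted p = 0.0118), and the laminin gene LAMB3 13.2, 12 and 9.99 and 32.8, 27.4 and 41 (adjusted p = 0.0205).

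DHRS2, a short-chain dehydrogenase gene, had 1748, 1837 and 1719 normalized counts in vector and 390.3, 453 and 479 in A197-270 libraries (log2 -2.01 ± 0.111, limma adjusted p = 7.3e-09). LIPG, endothelial lipase, fell from 93.8 ± 15.4 to 40.2 ± 2.84 and POMZP3 from 178 ± 11.9 to 76.9 ± 5.67. Vector means without and with IFN-gamma were 1768 and 3015 for DHRS2, 93.8 and 103 for LIPG and 178 and 202 for POMZP3. Separation of both groups of 3 was a condition for naming these genes.

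GH1, the growth hormone gene of the pituitary (chromosome 17, 63917200 to 63918838, minus strand), had 10189, 10412 and 11080.1 normalized counts in the vector libraries and 1.88, 0 and 2.1 in the A197-270 libraries. These were 37736 reads over the vector group and 4 over the A197-270 group (log2 -12.31 ± 0.307, limma adjusted p = 5.99e-13). Its neighbours in the growth hormone cluster were at or near 0. GH2 had 27 and 15 reads, CSHL1, whose annotated span overlaps GH1, 19 and 0, CSH2 12 and 0, and CSH1 0 in both groups. Of 7 pituitary markers 6 were at 0 in all 6 libraries, among them POU1F1, which activates GH1 in somatotropes. The labels give no plasmid sequence, so reads from a plasmid and reads from the cell's own gene cannot be told apart.

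Genes known from immune and inflammatory responses were among the off-list genes that fell. Off-list does not mean unresponsive to IFN-gamma. Vector means without and with IFN-gamma were 296 and 798 for CD68, 177 and 411 for RASGRP3, 46.4 and 233 for CTSS and 39.4 and 183 for ICAM1. They were 91.7 and 94.3 for TRANK1, 126 and 128 for MMP13 and 171 and 128 for CXCL8. C19orf66, also called SHFL or Shiftless, is an interferon-induced inhibitor of ribosomal frameshifting that was not on the interferon list (chromosome 19, 10086122 to 10093252). It had 701, 660.2 and 682 normalized counts in vector and 144, 95.7 and 79.9 in A197-270 libraries (log2 -2.71 ± 0.158, limma adjusted p = 1.43e-08). RASGRP3, an activator of Ras and Rap, went from 196, 165 and 169 to 45, 36.2 and 45.2 (log2 -2.04), and TRANK1 from 123, 88.9 and 63.5 to 8.44, 12.8 and 8.41 (log2 -3.06). The promoter of C19orf66 is shown because it carries the core of the interferon-stimulated response element (GAAA, 2 bases of any kind, then GAAA), in capitals at base -43 from the start.
C19orf66 (chr19:10086067-10086366, plus strand): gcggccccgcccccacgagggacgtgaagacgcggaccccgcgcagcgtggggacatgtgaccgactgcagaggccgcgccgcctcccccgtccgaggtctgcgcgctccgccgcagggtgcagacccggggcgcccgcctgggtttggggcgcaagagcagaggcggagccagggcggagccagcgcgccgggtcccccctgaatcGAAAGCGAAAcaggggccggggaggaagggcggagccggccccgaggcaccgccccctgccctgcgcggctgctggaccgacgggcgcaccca
This core, searched on both strands, stood in 5 of 32 matched promoters of off-list genes that fell at least 2-fold (15.6%), in 39 of 69 of those on the interferon list (56.5%), in 2.72% of promoters of all off-list genes that fell and in 2.82% of all matched promoters. The 5 off-list genes were C19orf66, PATL2, OR2B6, RUFY4 and HIST1H2BJ. For comparison, a heat shock element (TTC, GAA and TTC, each 2 bases apart, on both strands) stood in 3 of 22 promoters of heat shock list genes that rose (13.6%), in 0.361% of those of off-list genes that rose and in 0.284% of all.

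CD68, a lysosomal glycoprotein best known from macrophages, had 302, 267 and 320.4 normalized counts in vector and 39.4, 46.1 and 54.6 in A197-270 libraries (log2 -2.65 ± 0.194, limma adjusted p = 2.2e-07). Monocyte markers as a list summed to 301 to 353 in vector and 75.1 to 96.7 in A197-270 libraries, with FCGR3A at 0 in all 6. Most of the vector sum was CD68, and the other members were low, in both directions. CSF1R averaged 7.62 in vector and 16.1 in A197-270 libraries, CD14 4.77 and 12.5, and AIF1 8.77 and 4.99. CTSS, cathepsin S, fell by 1.04, while its list of lysosome and vacuolar pump genes had 9 up and 6 down of 46 (6 and 10).

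Of 28 NF-kappaB targets and subunits 8 fell and 3 rose (8 and 1 with equal totals). The chemokine gene CXCL8 had 203, 175 and 135 normalized counts in vector and 61.9, 68.9 and 64.1 in A197-270 libraries (log2 -1.37), and the adhesion gene ICAM1 57.8, 31 and 29.4 and 12.2, 14 and 18.9 (-1.29). The feedback inhibitors NFKBIA and TNFAIP3 fell by 0.78 and 0.76. CCL3, a chemokine gene, had 19.3, 27 and 28.8 in vector and 0 reads in all A197-270 libraries, at least 31.1-fold lower with a floor of 3 reads over that group. Of 23 apoptosis regulators 7 fell and 1 rose (10 and 1). PMAIP1, the BH3-only protein NOXA, went from 17465, 16572 and 15997 to 11762, 12096 and 11505 (log2 -0.50), and BMF and BAK1 fell by 0.35 and 0.31. Of 25 p53 targets 7 fell and 2 rose (9 and 2), with PLK3 at -0.75, and CDKN1A stood at -0.16 (adjusted p = 0.0722).

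Smaller systems shifted as well. Of 13 genes of nonsense-mediated decay and small nucleolar RNA hosts 8 fell and 1 rose (8 and 0 with equal totals). SMG5, a decay factor, had 8138, 8008 and 8177 normalized counts in vector and 6068, 5873 and 5849 in A197-270 libraries (log2 -0.45 ± 0.0483), and UPF2 fell by 0.29. The member that rose was GADD45B (0.32), whose transcript is a known target of that decay; its call was lost when any library but vector replicate 3 was left out. Of 17 circadian clock genes 5 fell and 0 rose (6 and 0), led by the repressor gene NR1D1 (-0.71). Of 25 metallothionein and zinc transport genes 8 fell and 3 rose (10 and 2). Those that fell included SLC30A1, the zinc exporter (-0.51), and the metallothionein gene MT2A (-0.38, a call lost without any one of 4 libraries), and the importer gene SLC39A10 rose (0.35). SAT1, which acetylates polyamines for export, fell from 10922 ± 1687 to 7361 ± 352, and the synthesis genes SMS and ODC1 rose by 0.31 and 0.25.

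Other lists are given by their counts. Of 443 ZNF genes 20 rose and 54 fell (13 and 73 with equal totals). Proteasome subunits had 5 up and 2 down of 32, and 4 and 6 with equal totals. Core autophagy genes had 2 up and 6 down of 28, and 2 and 12 with equal totals. Endocytosis and retromer genes had 3 up and 2 down of 25 (2 and 4), Notch pathway genes 2 and 3 of 19 (1 and 3), Wnt targets 1 and 3 of 17 (0 and 3), and YAP and TEAD targets 4 and 1 of 18 (2 and 3). TGF-beta and BMP targets had 6 up and 2 down of 22 (5 and 2), with TGFB2 at 0.51 (a call lost without any one of 4 libraries) and SMAD6 at 0.49. Cadherins, protocadherins and integrins had 8 up and 3 down of 61 (3 and 5), tubulins and kinesins 11 and 5 of 54 (6 and 7), and neuronal genes 5 and 4 of 26 (4 and 4). Immediate-early genes had 4 up and 2 down of 25 (3 and 3) and MAPK feedback genes 4 and 1 of 20 (2 and 2), with DUSP1 at 0.44.

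Some large fold changes belong to genes that overlap others. Of the 77 off-list genes that changed at least 2-fold, 31 overlap another protein-coding gene of the table, 3 have read-through names and 6 have clone-based names. Of those with none of these features 13 were higher and 33 lower. How many of all tested genes overlap another gene was not counted, so whether 31 of 77 is unusual is not known. AL365205.1 rose from 845, 914 and 989 to 4010.1, 3347 and 2023 normalized counts while TOMM6, which overlaps it, averaged 3498 in vector and 975 in A197-270 cells. Their sum was 4414 ± 107 and 4102 ± 125 (SD, n = 3 each). CDK3, TEN1 and their read-through gene summed to 226 in vector and 234 in A197-270 cells, with CDK3 called higher and the read-through gene lower. IPO4, called higher at 1.22 but not without vector replicate 1 or A197-270 replicate 4, overlaps REC8, a meiotic cohesin gene that was lower (-1.76), and a clone-named gene. GP1BB, a platelet receptor gene, was at 0 in the vector libraries and at 62.9, 67.1 and 0 in the A197-270 libraries, and it was not called (adjusted p = 0.138). ARL2-SNX15 had 0 reads in the vector libraries and 22.5, 39.1 and 104 normalized counts in A197-270 libraries, beside ARL2 and SNX15 themselves at 2955 and 968 in vector and 2681 and 878 in A197-270 cells. The labels do not state how reads were divided among such genes.

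Changes also moved with transcript length. The median of the longest annotated transcript was 4537 bases for off-list genes that rose, 3368 for those that fell and 3689 for all tested genes. With the genes split into 5 equal groups by length, the shortest group had 196 genes higher and 399 lower with a median log2 fold change of -0.05, and the longest 557 higher and 243 lower with a median of 0.05. Cytosolic ribosomal genes, with a median of 1857 bases, went against that order. The median was 1722 bases for mitochondrial ribosome genes, 1073 for histone genes and 6520.5 for matrix genes, which went along with it, and the part of length in those results was not tested.

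The same construct was compared in cells given IFN-gamma, where none of the 6 libraries is shared but the estimate of each gene's spread is. There 2616 genes (18.6%) were higher and 2272 (16.2%) lower. Glycolysis had 21 of 22 up, the cytosolic ribosome 70 of 79 up, translation factors 26 of 42 up, and none of the first and second lists fell. Cholesterol genes had 10 of 23 down, histone genes 9 of 34, and mitochondrially encoded genes 7 of 13 up. TFRC differed by 1.15, C8orf4 by 3.19, STC1 by 1.08 and DHRS2 by -1.51 on the log2 scale. H1F0 averaged 173878 normalized counts in the vector group and 87295 in the A197-270 group with IFN-gamma. GH1 had 0 reads in the A197-270 libraries with IFN-gamma and averaged 13780.1 normalized counts in the vector ones.

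A test of the difference between both construct effects called 126 of 14049 genes (0.897%). Among off-list genes named here, the fall was smaller with IFN-gamma for C19orf66 (-0.75; interaction adjusted p = 9.11e-05), RASGRP3 (-0.39; 3.25e-05), TRANK1 (-0.97; 0.0368), CD68 (-1.26; 0.0214) and CXCL8 (-0.23; 0.0207). The rise was smaller for NT5DC2 (0.38; 0.000353) and larger for NDRG1 (1.03; 0.0234). Of the other genes named by the rule, only OAS1, which is on the interferon list, passed.

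**Figure D5:**
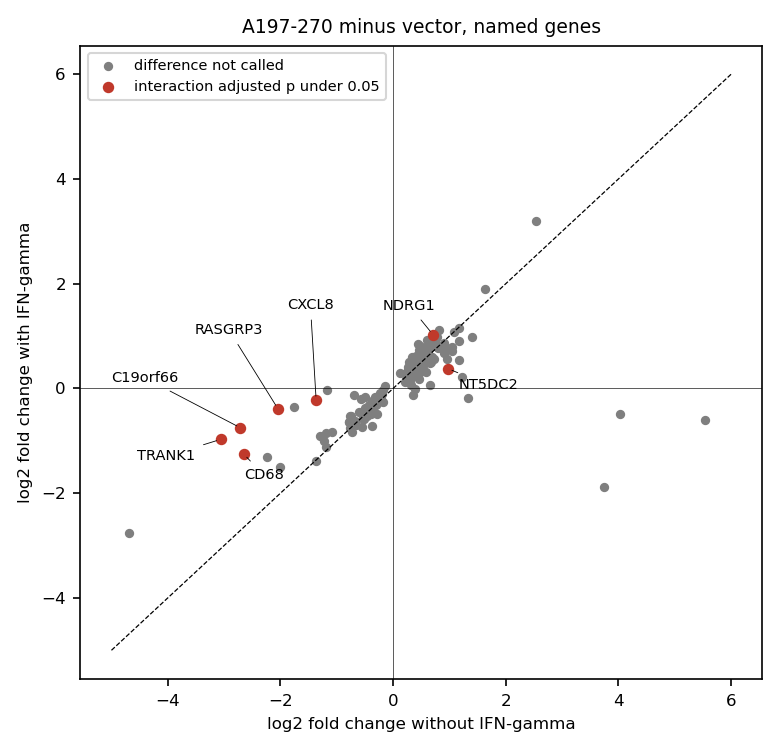
Log2 fold change of A197-270 against vector for the named genes, without IFN-gamma on the x axis and with it on the y axis, with a dashed line where both are equal and red points where the difference passed the test (interaction adjusted p under 0.05). OAS1, HSPA6 and GH1 are not drawn. C19orf66, RASGRP3, TRANK1, CD68 and CXCL8 lie above the line on the left, with smaller falls under IFN-gamma, and the 3 grey points far right are GP1BB, TRIM6-TRIM34 and ARL2-SNX15, each at 0 in the vector libraries without IFN-gamma.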

How the data were processed

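Values are normalized counts for 19836 protein-coding genes, as the authors deposited them, and were treated as a signal. Build hg38 and the tools DESeq2 1.22.1, StringTie 1.3.3b and HISAT2 2.1.0 are listed, without roles, per the submitters' processing notes. All values of each column were whole multiples of 1 read's worth within 0.001 of a read, and the recovered whole reads gave the depths.

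The tests covered 14049 genes whose mean over 12 libraries reached 10. They used limma 3.58.1 (R 4.3.3), fitted to log2(value + 1) as 1 model of 4 group means and a mean-variance trend, two-sided, with Benjamini-Hochberg adjustment over all of them and a threshold of 0.05. Fold changes are on that scale, which understates those of low genes. Positions are from GENCODE 29 of GRCh38 and promoters from RefSeq GRCh38.p14 (11249 genes matched).

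The members, gene lists and tests were chosen with earlier results of these data known. Named genes were the 15 largest rises and falls and the 8 largest by difference of means, among called off-list genes whose groups did not overlap and whose mean reached 50, the 3 called members of each list with the largest change, and off-list genes at 0 in one group whose mean in the other reached 20. A few of these are not reported here. Further genes named were chosen after their values were seen. Alternatives were equal totals, quantile normalization, pseudocounts 0.5 and 10, other filters, the 6 libraries alone, edgeR 4.0.16, DESeq2 1.42.0 and leaving out each library. Floors of 3 reads cover counting error only. The fit was tested on simulated data with fewer changed genes than were called here and no small changes. That test does not cover the small changes called here.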

Additional observations from a re-analysis of the deposited data

Results flagged for a closer look

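For 8 named genes the construct's effect differed between cells with and without IFN-gamma, by limma's interaction test over all genes. The values are the log2 effect with IFN-gamma minus the effect without it, and each effect itself stands in the report or here. It was 1.96 for C19orf66, with means of 1341 in vector and 802 in A197-270 cells under IFN-gamma. It was 1.66 for RASGRP3 (411 and 315), 2.09 for TRANK1 (94.3 and 46.5), 1.39 for CD68 (798 and 333) and 1.14 for CXCL8 (128 and 109). NT5DC2 gave -0.60 (1933 and 2514) and NDRG1 0.32 (9347 and 19106). OAS1, an interferon-induced gene kept as a reference point, gave 6.86 (adjusted p = 0.00016), from effects of -8.38 without and -1.52 with IFN-gamma.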

How the results depend on the processing

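No paired analysis was possible because the labels give every sample a number of its own. With libraries scaled to equal totals the calls became 1161 higher and 2741 lower over all genes and 1135 and 2553 off-list, since that scaling moves the median of all genes down by about 0.05. Off-list genes that rose at least 2-fold were 38 with no filter on low values and 12 at a mean of at least 50. Those that fell at least 2-fold were 32 with a pseudocount of 10 and 25 at a mean of at least 50. Leaving out 1 library at a time gave 1319 to 1640 genes higher and 1268 to 1587 lower, 1295 to 1612 and 1106 to 1422 off-list, and 21 to 37 and 38 to 54 off-list genes past 2-fold, with 37 rises without vector replicate 3. Off-list calls by edgeR were 1767 and 1566, by DESeq2 1888 and 1723, and with the 6 libraries alone 1606 and 1400. Of 184 named genes 155 kept their call and direction under every alternative that tested them (5 were not tested at a mean of at least 50), and 29 lost or gained a call under at least 1 (RPL4, RPS4X, NPM1 and EEF1A1 only under quantile normalization), for causes that were not tested. Under quantile normalization EEF1A1 gave a change of 0 by construction, since it ranked 1 in all 6 libraries compared.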
